A study of Mus with 15 samples.

Results

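Regulatory T cells (Tregs) restrain immune responses and depend on the transcription factor FOXP3. In the thymus they arise from CD4 single-positive thymocytes that have met self-antigen, through progenitors that carry either CD25, which gives the IL-2 receptor its high affinity, without FOXP3, or a low level of FOXP3 without CD25, and IL-2 family cytokines then drive both into cells that carry both proteins. CD25+ progenitors were compared directly with FOXP3lo progenitors, as bulk RNA from 3 libraries of each gate, which are 6 of the 15 libraries of the series. A library was assigned to a gate by its label. The cells came from the thymus of 6-week-old female mice, C57Bl/6 x Foxp3-GFP, given no treatment that the labels name. Both gates took live cells with CD4 and the beta chain of the T cell receptor (TCR) that were negative for CD8, BST2 (a membrane protein induced by interferon) and CD73 (an enzyme found on Tregs that have returned to the thymus). CD25+ progenitors were CD25-positive and FOXP3-negative, and FOXP3lo progenitors were CD25-negative with low FOXP3. Conventional CD4SP cells with neither protein and mature Tregs with both, 3 libraries each, from the same strain and otherwise gated in the same way, stayed in the fit for an estimate of spread over 12 libraries and are given as levels beside the progenitors. Replicates were numbered 40, 42 and 43, and values of single libraries follow that order throughout. The labels do not say whether a replicate was 1 mouse or a pool. A p-value therefore sets a difference between gates only against the spread among replicates of these 12 libraries, which may in part be technical. In bulk RNA, fewer cells of a type and less RNA per cell cannot be told apart.

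The CD25+ progenitor libraries held 15465318, 19016884 and 18207819 counts and the FOXP3lo progenitor libraries 18180510, 18497274 and 18650969. The biological coefficient of variation, the spread between replicates beyond counting error, was 0.195 among CD25+ progenitors and 0.149 among FOXP3lo progenitors. On the first principal component of log2 CPM (counts divided by effective library size), which took 27.36% of the variance, CD25+ progenitors lay between −50.66 and −47.09 and FOXP3lo progenitors between 34.12 and 38.85. No library stood apart from its own gate. In what follows levels are CPM, which are not scaled for gene length and so are compared between gates and not between genes. Log2 fold changes are CD25+ over FOXP3lo, so that negative values mean a higher level in FOXP3lo progenitors, and are given ± standard error. The standard error was derived from the test below, as the size of the log2 fold change over the square root of the F statistic. Adjusted p-values come from the quasi-likelihood test of edgeR, adjusted over 15648 genes by the Benjamini-Hochberg method, a gene was called at an adjusted p under 0.05, and coordinates refer to GRCm38.

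Foxp3 and Il2ra, the genes that set the gates apart, differed in the direction of the labels. Cd8a and Cd8b1, whose protein the sort excluded from both gates, were called higher in CD25+ progenitors and are given further below. Foxp3 (ENSMUSG00000039521, chromosome X, 7573644 to 7595245) stood at 4.21, 1.83 and 3.62 CPM in the CD25+ libraries and at 298, 273 and 302 in the FOXP3lo libraries. Mature Tregs averaged 601 ± 59.8 CPM of Foxp3 and conventional cells 0.956 ± 0.548 (SD, n = 3, as for all means below). Il2ra, which encodes CD25 (ENSMUSG00000026770, chromosome 2, 11642807 to 11693193), stood at 296, 283 and 292 CPM in CD25+ progenitors and at 105, 101 and 118 in FOXP3lo progenitors, 2.69-fold apart. Transcripts of Il2ra were therefore present in cells sorted as negative for surface CD25, at a level between the 9.11 ± 1.47 CPM of conventional cells and the 1157 ± 29.2 of mature Tregs. Cd4 was not called, at 675, 679 and 705 CPM in CD25+ and 716, 635 and 686 in FOXP3lo libraries (log2 fold change 0.01 ± 0.06). Bst2 averaged 14 ± 2.68 and 12.3 ± 0.638 CPM and was not called (adjusted p = 0.495). Nt5e, which encodes CD73, averaged 3.75 ± 0.375 in CD25+ and 6.76 ± 2.88 CPM in FOXP3lo progenitors, just short of the threshold (adjusted p = 0.0537), and was called without FOXP3lo replicate 40 or 42 (log2 fold changes of −0.98 and −1.04). The log2 fold change of Nt5e was −0.85, and −0.44 and not called without FOXP3lo replicate 43.

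The progenitor gates differed across a large share of the transcriptome. Of 15648 genes tested, 6187 were called, or 39.5%. Of these, 3110 were higher in CD25+ progenitors (19.9% of genes tested) and 3077 higher in FOXP3lo progenitors (19.7%). A difference of over 2-fold was estimated for 1256 of the former and 890 of the latter. The median log2 fold change over all genes was −0.02, and 7869 genes had levels that did not overlap between the gates. These shares are the background for every gene list below: a list with about 2 in 10 members called each way is like the genes at large. The background was not matched to the lists by level. Among genes with at least 2 CPM in 3 libraries, a larger share was called, 6116 of 12455. The scatter of gate means shows Foxp3, S1pr1 and Gimap3 far below the diagonal and H19, Xcl1, Rag1 and Dntt far above it.

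**Figure D1:**
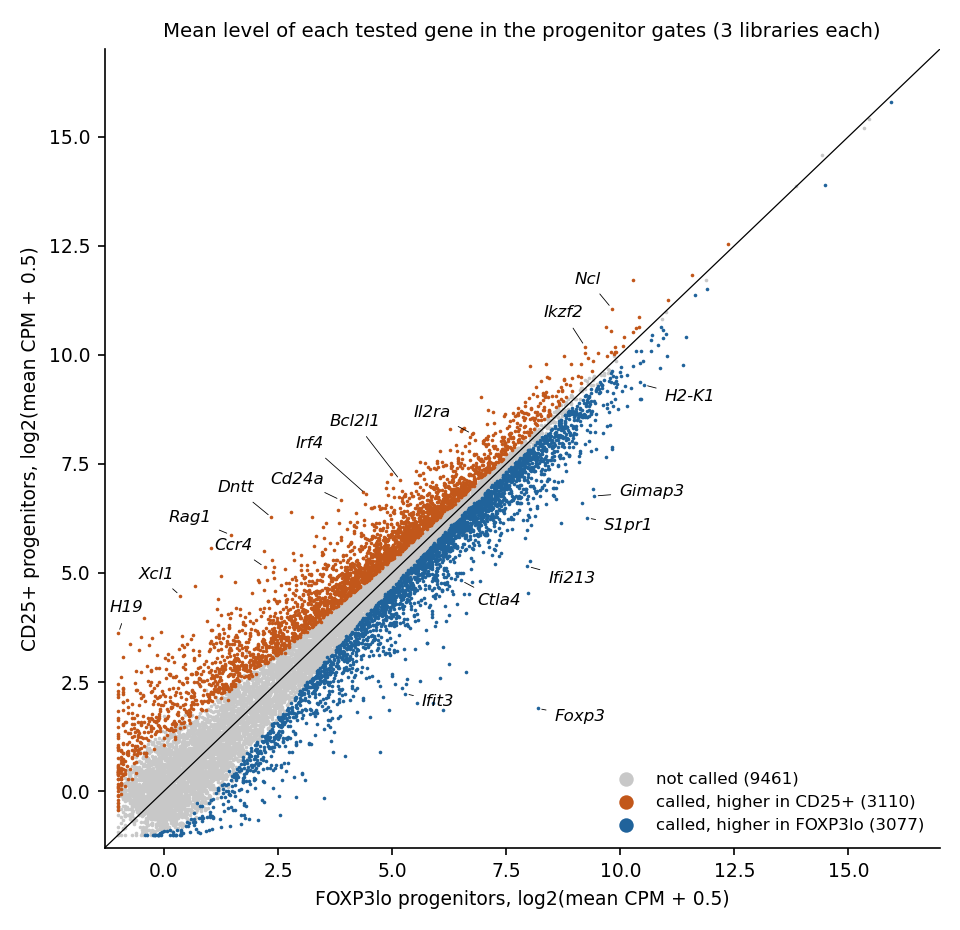
Mean level of each tested gene in FOXP3lo progenitors (x axis) and CD25+ progenitors (y axis), both as log2(mean CPM + 0.5) over 3 libraries, on linear axes of log2 values. Each point is a gene, coloured by its call, with 3110 genes above the diagonal called higher in CD25+ and 3077 below it called higher in FOXP3lo.

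The clearest group on the FOXP3lo side was made of genes that thymocytes gain as they ripen and prepare to leave the thymus. Of 30 maturation and egress genes tested, of 32 listed, 29 were higher in FOXP3lo progenitors and 0 higher in CD25+ progenitors, with a median log2 fold change of −1.43 against −0.02 over all genes. S1pr1, the receptor for sphingosine-1-phosphate through which T cells exit the thymus (ENSMUSG00000045092, chromosome 3, 115710433 to 115715072), stood at 86.9, 69.1 and 72.5 CPM in CD25+ and 618, 615 and 623 CPM in FOXP3lo libraries. Every FOXP3lo library was far above every CD25+ library, and the FOXP3lo libraries differed little from each other. The difference was 8.13-fold, with a log2 fold change of −3.02 ± 0.08 (adjusted p = 1.21e-28). Conventional cells averaged 201 ± 21.8 CPM, above CD25+ progenitors, and mature Tregs 507 ± 9.26, below FOXP3lo progenitors. Klf2, the transcription factor that switches on S1pr1 (ENSMUSG00000055148, chromosome 8, 72319033 to 72321656), stood at 111, 104 and 109 CPM against 226, 206 and 228, a smaller difference (−1.02 ± 0.07 (adjusted p = 1.45e-15)). Foxo1, which acts upstream of Klf2, differed by about the same amount (log2 fold change −1.05 ± 0.06).

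The other maturation genes moved the same way by different amounts. Gimap3, of a family of small GTPases needed for lymphocyte survival (ENSMUSG00000039264, chromosome 6, 48764464 to 48770851), stood at 112, 113 and 99.3 CPM against 676, 666 and 717. Its log2 fold change was −2.67 ± 0.07 (adjusted p = 1.21e-28), the lowest of 8 Gimap genes, which were all called and of which Gimap9 differed least (−0.51). Ms4a4c, Ms4a6b and Ms4a4b, membrane proteins gained late in thymocyte life, had log2 fold changes of −2.73, −2.56 and −2.55. Reads of the Gimap, Ms4a4 and Ly6c genes may be split uncertainly among near-identical copies. Il6ra, the IL-6 receptor, and S1pr4, another sphingosine-1-phosphate receptor, were also higher in FOXP3lo progenitors, by 4.39-fold and 3.11-fold. The member that was not called was Il7r, the IL-7 receptor alpha chain, at 72.3, 62.7 and 40.2 CPM against 48.2, 50.3 and 39 (adjusted p = 0.31, and called higher in CD25+ progenitors without CD25+ replicate 43, at a log2 fold change of 0.56). Both progenitor gates held much less Il7r than conventional cells, at 345 ± 18.5 CPM.

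**Figure D2:**
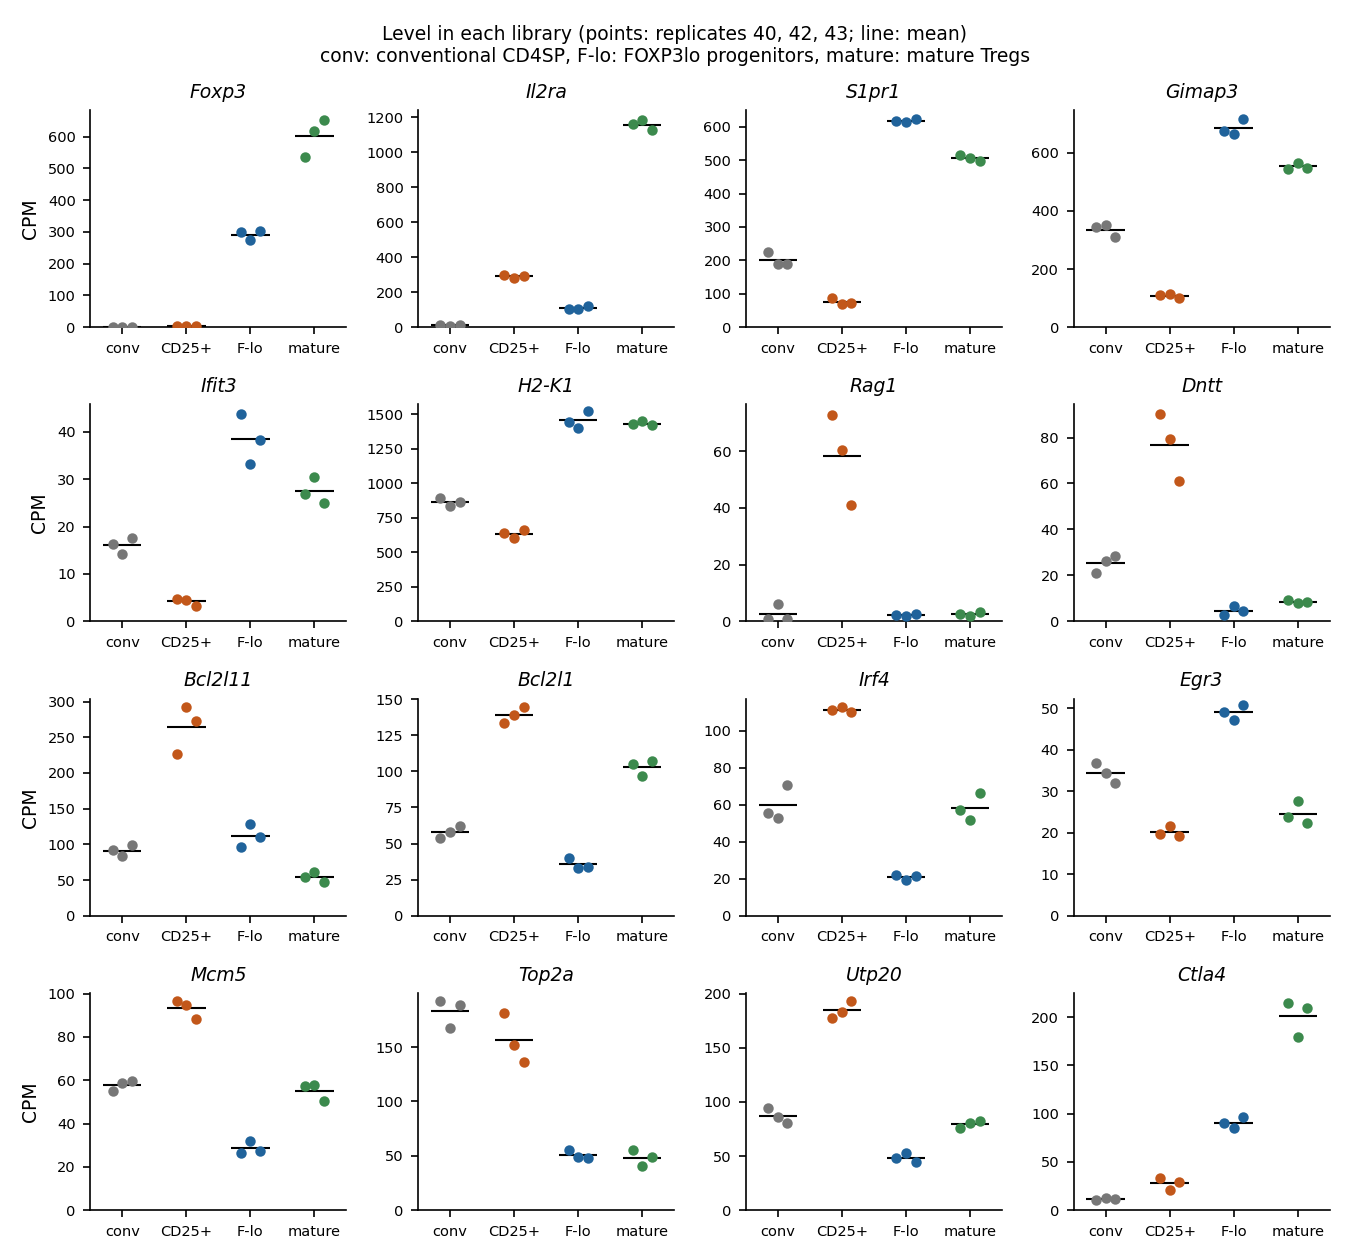
CPM on linear axes from 0 in each of the 12 libraries for 16 genes, 1 panel a gene, by gate on the x axis. Points are libraries and lines are means of 3, and for S1pr1, Gimap3, Ifit3 and H2-K1 every FOXP3lo library lies above every CD25+ library, while for Rag1, Dntt, Bcl2l11, Bcl2l1, Irf4, Mcm5, Top2a and Utp20 the order is the reverse.

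Interferon-stimulated genes were higher in FOXP3lo progenitors almost throughout the list. Type I interferon signals through STAT and IRF transcription factors to switch on antiviral genes, and in the thymus a low level of it acts on late single-positive thymocytes without infection. Of 67 such genes tested, of 73 listed, 63 were higher in FOXP3lo progenitors and 0 higher in CD25+ progenitors, with a median log2 fold change of −1.27. Their summed level was 4772 to 5187 CPM in CD25+ libraries and 10784 to 11575 CPM in FOXP3lo libraries. The 4 not called were Phf11d, Tor3a, Lgals3bp and Psmb8, with log2 fold changes of −1.32, −0.41, −0.15 and −0.09. Bst2, which interferon also induces, is not in this list and was not called (0.19 ± 0.20 (adjusted p = 0.495)). Both gates were sorted as negative for its protein, and the effect of that selection on the list was not tested.

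Among the signalling components, Stat2 (ENSMUSG00000040033, chromosome 10, 128270559 to 128292849) stood at 62.9, 61.7 and 66.2 CPM in CD25+ and 144, 127 and 141 CPM in FOXP3lo libraries, a log2 fold change of −1.11 ± 0.08 (adjusted p = 1.16e-14). Every FOXP3lo library was above every CD25+ library. Irf9, its partner, had a log2 fold change of −0.86 ± 0.07, and Irf1 one of −1.22 ± 0.08. Irf7, which amplifies interferon production (ENSMUSG00000025498, chromosome 7, 141262706 to 141266481), stood at 53.8, 48.8 and 56.7 CPM against 139, 126 and 150.2 (−1.38 ± 0.09 (adjusted p = 1.36e-16)).

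Among the effectors, Ifit3, an inhibitor of viral translation (ENSMUSG00000074896, chromosome 19, 34583531 to 34588731), had the largest difference of the list. It stood at 4.77, 4.51 and 3.35 CPM against 43.7, 33.1 and 38.2, a log2 fold change of −3.19 ± 0.18 (adjusted p = 4.69e-18), and conventional cells lay between the gates at 16 ± 1.68 CPM. Reads of Ifit3 and its copy Ifit3b (−2.39) may be split uncertainly. Samhd1, which depletes nucleotides that viruses need (ENSMUSG00000027639, chromosome 2, 157097533 to 157135265), stood at 220.3, 196 and 185 CPM against 828, 800.0 and 839 (−2.04 ± 0.07 (adjusted p = 3.55e-25)). The IFI200 family of nucleic acid sensors on chromosome 1 shared the direction, with Ifi213 at 47.2, 27.7 and 30.3 CPM against 246, 258 and 242 (−2.83 ± 0.17 (adjusted p = 3.24e-08)) and Ifi203 at 73.3, 63.1 and 65.9 CPM against 252, 267 and 267. These genes are also close copies of each other. Isg15, a ubiquitin-like protein, differed least clearly among the genes named. It stood at 15.3, 15 and 20.6 CPM against 27.9, 18.5 and 24, with overlapping libraries (−0.47 ± 0.18 (adjusted p = 0.0314)). The call for Isg15 was lost without CD25+ replicate 40 or 42 and without FOXP3lo replicate 40 or 43.

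MHC class I genes, which present peptides to CD8 T cells and rise as thymocytes mature, followed the interferon-stimulated genes, and both lists share Nlrc5, Tap1, Psmb8 and Psmb9. Of 22 genes, 15 were higher in FOXP3lo progenitors and 5 in CD25+ progenitors, with a median of −0.81. The classical heavy chain H2-K1 (ENSMUSG00000061232, chromosome 17, 33996017 to 34000347) stood at 639.9, 603 and 663 CPM in CD25+ and 1443, 1402 and 1524 in FOXP3lo libraries, a log2 fold change of −1.2 ± 0.06 (adjusted p = 5.53e-20). The FOXP3lo libraries lay at the level of mature Tregs, 1431 ± 14.4 CPM, and the CD25+ libraries below conventional cells, 863 ± 28.5 CPM. B2m, the light chain (ENSMUSG00000060802, chromosome 2, 122147686 to 122153083), stood at 466, 454 and 473 CPM against 832, 845 and 827 (−0.85 ± 0.06 (adjusted p = 1.47e-15)). Nlrc5, the transactivator of MHC class I genes (ENSMUSG00000074151, chromosome 8, 94434356 to 94527272), stood at 183, 179 and 193 CPM against 547, 537 and 551 (−1.56 ± 0.07 (adjusted p = 1.95e-20)). The non-classical genes H2-Q7 and H2-Q4, close copies whose reads are hard to assign, had log2 fold changes of −2.58 ± 0.11 and −1.48 ± 0.08. The 5 genes higher in CD25+ progenitors were the peptide-loading chaperones Calr (0.77 ± 0.07) and Pdia3 (0.43 ± 0.07), the proteasome activator subunits Psme1 (0.39 ± 0.07) and Psme2 (0.51 ± 0.09), and the peptide-trimming enzyme Erap1 (0.28 ± 0.07).

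**Figure D3:**
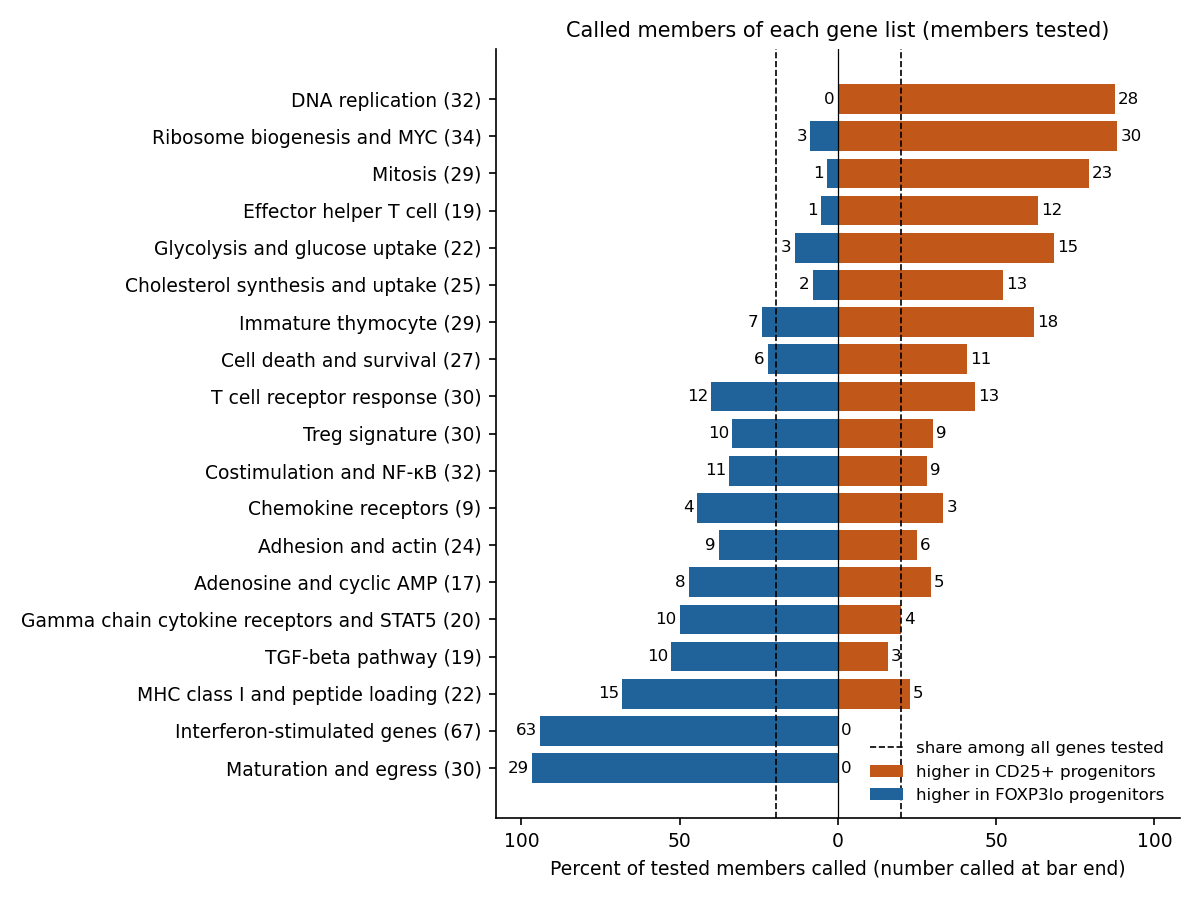
Percent of the tested members of each gene list that were called, higher in FOXP3lo progenitors to the left and in CD25+ progenitors to the right, with the number called at the end of each bar and the number tested in brackets. Dashed lines mark the shares over all 15648 genes, 19.7% and 19.9%, which many lists exceed. The largest shares are those of the replication, ribosome biogenesis and mitosis lists on the right. On the left they are those of the maturation, interferon and MHC class I lists.

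Genes of earlier thymocyte stages were mostly higher in CD25+ progenitors. Of 29 immature thymocyte genes tested, 18 were higher in CD25+ progenitors and 7 in FOXP3lo progenitors, with a median of 0.69. That median is the value of Cd8b1, a gate gene that was counted in the list. Rag1, a subunit of the enzyme that recombines antigen receptor genes (ENSMUSG00000061311, chromosome 2, 101638282 to 101649501), stood at 72.9, 60.4 and 41.1 CPM in CD25+ libraries and at 2.31, 1.8 and 2.64 in FOXP3lo libraries. The CD25+ libraries varied, yet the lowest of them was far above the highest FOXP3lo library, and the log2 fold change was 4.69 ± 0.67 (adjusted p = 4.43e-04). Rag2, its partner, had 248 counts over the CD25+ libraries and 2 over the FOXP3lo libraries, a ratio of 121 (95% counting interval 33.1 to 1003). Dntt, the terminal transferase that adds bases at receptor junctions (ENSMUSG00000025014, chromosome 19, 41029275 to 41059525), stood at 90.0, 79.5 and 60.9 CPM against 2.6, 6.51 and 4.73 (4.05 ± 0.21 (adjusted p = 4.42e-17)). Cd24a, a surface glycoprotein lost as thymocytes mature (ENSMUSG00000047139, chromosome 10, 43578284 to 43584265), stood at 92.4, 107 and 104 CPM against 14.5, 13.8 and 14.1 (2.84 ± 0.13 (adjusted p = 6.95e-21)). Ptcra, the surrogate alpha chain of the pre-TCR, and Arpp21, a gene of double-positive thymocytes, had log2 fold changes of 4.42 ± 0.98 and 3.46 ± 0.26.

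The transcription factors of the list were split, with smaller differences. Sox4 stood at 393, 449.8 and 451 CPM in CD25+ and 269, 269.5 and 253 in FOXP3lo libraries (0.71 ± 0.08 (adjusted p = 3.03e-10)), and Tcf7, which encodes TCF-1, at 1513, 1573 and 1655 against 1441, 1338 and 1308 (0.21 ± 0.06 (adjusted p = 0.00336)). Lef1, the close relative of TCF-1, went the other way, at 582, 586 and 562 CPM against 850.2, 818 and 822 (−0.53 ± 0.06 (adjusted p = 8.59e-10)). Id3, Tox and the chromatin organiser Satb1 were also higher in FOXP3lo progenitors, with log2 fold changes of −0.90, −0.63 and −0.25. Satb1 averaged 1602 and 1906 CPM, and both were below the 3425 CPM of conventional cells. Ccr9, a chemokine receptor of thymocytes, was low in both gates, at 0.31, 0.862 and 0.426 CPM against 2.2, 3.26 and 2.64 (−2.31 ± 0.61 (adjusted p = 0.0019)).

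Markers of other cells moved with the immature genes. The list of CD8 and double-positive thymocyte markers had 11 of 13 members higher in CD25+ progenitors and 1 in FOXP3lo progenitors. It shares 9 of its 13 members with the immature list, so these lists are not independent of each other. Its summed level was 327 to 399 CPM in CD25+ and 102 to 110.3 CPM in FOXP3lo libraries. Although the sort excluded CD8, Cd8a stood at 11.3, 17.9 and 24.2 CPM against 2.37, 1.85 and 3.19 (2.85 ± 0.48 (adjusted p = 3.65e-04)) and Cd8b1 at 19.1, 20.5 and 22.6 against 12, 13.1 and 13.5 (0.69 ± 0.17 (adjusted p = 8.85e-04)), while conventional cells averaged 16.8 ± 9.37 and 27.9 ± 5.87 CPM. Of 7 gamma-delta T cell markers tested, of 12 listed, 6 were higher in CD25+ progenitors and 0 higher in FOXP3lo progenitors. Their summed level was 43.5 to 53.9 CPM in CD25+ and 10.5 to 16.7 CPM in FOXP3lo libraries. Trgc1, a constant region of the TCR gamma chain, had 430 counts against 2, a ratio of 209.5 (95% counting interval 57.6 to 1736), with reads uncertain among the Trgc copies. Trdc, the constant region of the TCR delta chain, was not called, at 11.1, 10.5 and 12.6 CPM against 14.9, 9.49 and 15.6 (−0.22 ± 0.21 (adjusted p = 0.452)). The part of these cells or transcripts in the differences of the immature genes was not tested.

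Genes induced by TCR signalling did not move together. Of 30 genes tested, 13 were higher in CD25+ progenitors and 12 in FOXP3lo progenitors, with a median of 0.01. More members than the 39.5% background, which is not matched for level, were called, and their directions were nearly even. On the CD25+ side were the NR4A nuclear receptors, immediate reporters of TCR signal strength. Nr4a1 (ENSMUSG00000023034, chromosome 15, 101254269 to 101274795) stood at 340.4, 382 and 461 CPM in CD25+ and 229.9, 204 and 205 CPM in FOXP3lo libraries (0.89 ± 0.09 (adjusted p = 1.35e-09)). Nr4a3 stood at 388, 406 and 418 against 249, 233 and 233 (0.76 ± 0.07 (adjusted p = 1.81e-12)). Irf4, a transcription factor that rises with TCR signal strength (ENSMUSG00000021356, chromosome 13, 30749226 to 30766976), differed most of the list. It stood at 111, 113 and 110.3 CPM against 22.2, 19.1 and 21.7, a log2 fold change of 2.41 ± 0.11 (adjusted p = 1.41e-20). The 3 FOXP3lo libraries also lay below conventional cells, 59.7 ± 9.66 CPM, and mature Tregs, 58.4 ± 7.21. Ikzf2, the gene of Helios, a factor of thymic Tregs (ENSMUSG00000025997, chromosome 1, 69531214 to 69687245), stood at 1108, 1197 and 1186 CPM against 566, 569.7 and 660.1 (0.96 ± 0.07 (adjusted p = 2.40e-15)). The feedback regulators Gadd45b, Spry1, Dusp5 and Dusp4 shared this direction, with log2 fold changes of 2.04, 1.86, 1.75 and 0.73.

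On the FOXP3lo side of the same list were the EGR transcription factors and several inhibitors of TCR signalling. Egr3 (ENSMUSG00000033730, chromosome 14, 70077203 to 70082614) stood at 19.6, 21.7 and 19.3 CPM in CD25+ and 49.1, 47.2 and 50.7 CPM in FOXP3lo libraries, with a log2 fold change of −1.28 ± 0.13 (adjusted p = 6.61e-11). Egr2 stood at 35.4, 29 and 30.3 CPM against 51.3, 44.4 and 57.7 (−0.70 ± 0.13 (adjusted p = 1.72e-05)), and Egr1, which is also a gene that tissue dissociation induces, at 101, 92 and 102 against 181, 149.8 and 167 (−0.75 ± 0.08 (adjusted p = 3.05e-10)). Cd5, a surface inhibitor whose level tracks the strength of self-recognition (ENSMUSG00000024669, chromosome 19, 10717116 to 10739002), stood at 374, 448 and 452 CPM against 565, 586 and 559 (−0.42 ± 0.07 (adjusted p = 1.65e-06)). Dgka, a kinase that removes the second messenger diacylglycerol (ENSMUSG00000025357, chromosome 10, 128720134 to 128744855), stood at 508, 485 and 518 CPM against 1359, 1353 and 1423 (−1.45 ± 0.06 (adjusted p = 5.85e-22)). Cblb, Ptpn22 and Ubash3b, negative regulators of TCR signalling, had log2 fold changes of −0.49, −0.55 and −0.74. Cd69, the early activation marker that also retains cells in the thymus, was not called, at 105, 108 and 99.6 CPM against 112, 104 and 109.8 (−0.06 ± 0.09 (adjusted p = 0.646)). Of 19 dissociation and immediate early genes tested, 10 were higher in FOXP3lo and 2 in CD25+ progenitors, among them Jun (−1.32) and Klf6 (−1.53) on the FOXP3lo side and Fosb (1.51) on the CD25+ side. Their summed level was 2287 to 2397 CPM in CD25+ and 2888 to 3118 CPM in FOXP3lo libraries, and their part in the EGR differences was not tested.

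**Figure D4:**
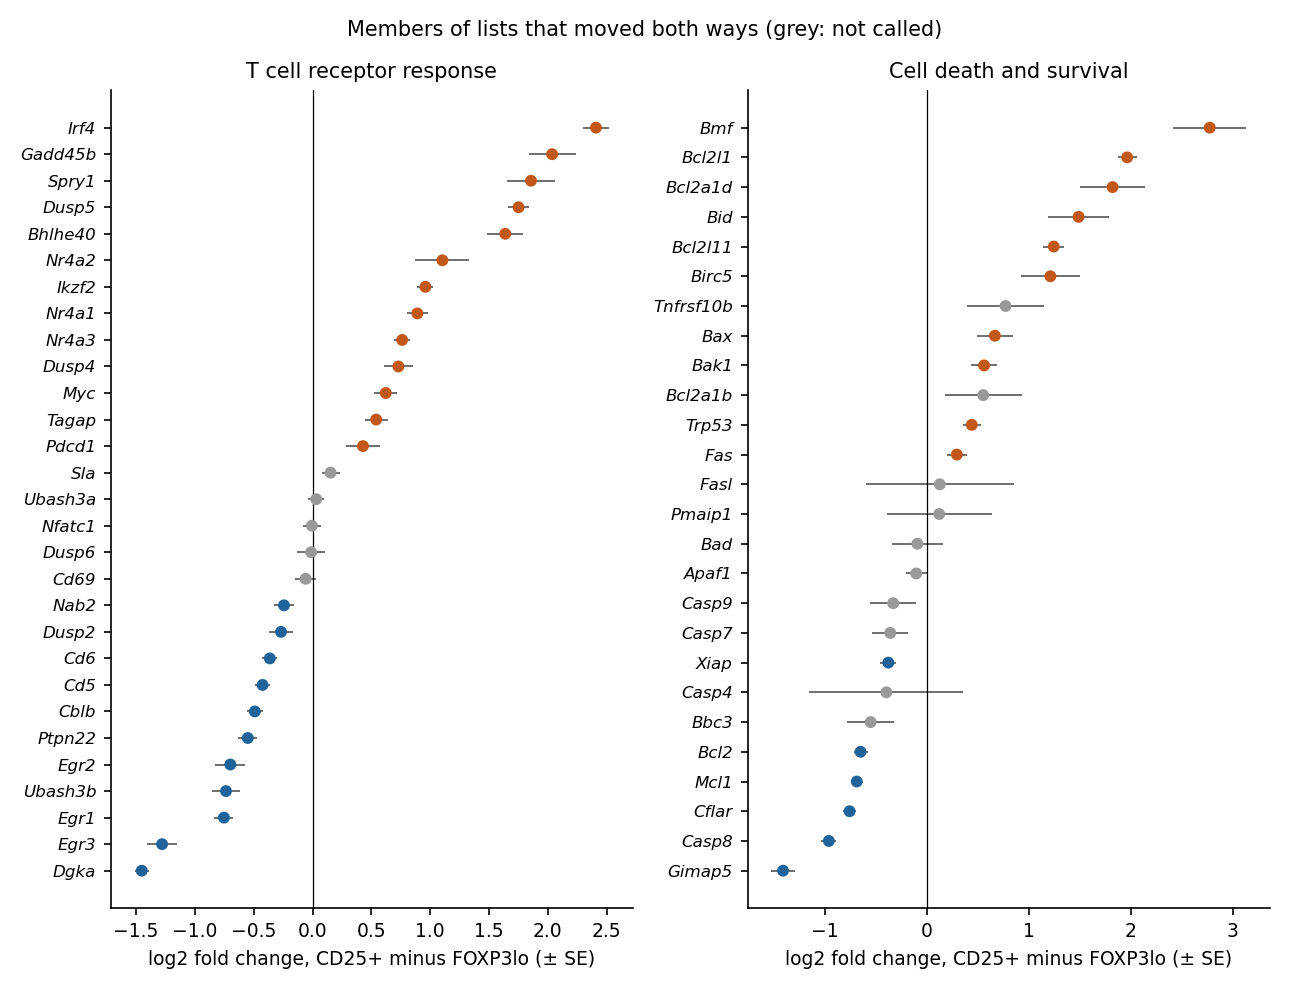
Log2 fold change of CD25+ over FOXP3lo progenitors (x axis, bars ± standard error) for 29 of the 30 tested members of the T cell receptor response list (left) and 26 of the 27 of the cell death and survival list (right). Orange points were called higher in CD25+ progenitors, blue points higher in FOXP3lo progenitors and grey points were not called, and the left panel runs from Irf4 at 2.41 to Dgka at −1.45.

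The costimulation and NF-κB list was also divided. TNF receptor family members on developing Tregs receive signals from the thymic medulla and pass them to NF-κB through TRAF adaptors. Of 32 genes tested, 9 were higher in CD25+ and 11 in FOXP3lo progenitors, with a median of −0.10. Among the receptors, Tnfrsf9, which encodes 4-1BB (ENSMUSG00000028965, chromosome 4, 150914562 to 150946102), stood at 377, 421 and 475 CPM in CD25+ and 136, 133 and 141 CPM in FOXP3lo libraries (1.64 ± 0.12 (adjusted p = 2.13e-09)). Tnfrsf4, which encodes OX40, stood at 159.8, 179 and 234 CPM against 102, 90.5 and 119 (0.88 ± 0.14 (adjusted p = 2.34e-04)), and Tnfrsf1b, which encodes TNFR2, at 206, 215 and 265 against 186, 149 and 177 (0.42 ± 0.09 (adjusted p = 8.86e-05)). Tnfrsf18, which encodes GITR, overlapped between the gates, at 133, 131 and 165 CPM against 145, 109 and 133 (adjusted p = 0.214, and called without FOXP3lo replicate 40, at a log2 fold change of 0.25). Tnfrsf25, the receptor DR3, and Cd27 were higher in FOXP3lo progenitors (−0.79 and −0.38).

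Downstream of the receptors, the NF-κB precursors Nfkb1 and Nfkb2 were higher in CD25+ progenitors (0.44 ± 0.06 and 0.60 ± 0.08), as was Tnfaip3, which encodes the feedback inhibitor A20 (0.60 ± 0.08). Rela was slightly higher in FOXP3lo progenitors (−0.26 ± 0.10), and Rel, the c-Rel subunit on which thymic Tregs depend, was not called, at 225, 222 and 218 CPM against 234, 211 and 234 (−0.03 ± 0.07 (adjusted p = 0.78)). Traf1, an adaptor and NF-κB target (ENSMUSG00000026875, chromosome 2, 34941750 to 34961772), stood at 59.7, 64.4 and 54.9 CPM against 166, 171 and 164, a log2 fold change of −1.48 ± 0.08 (adjusted p = 7.36e-19). Malt1, which links the TCR to NF-κB, had a log2 fold change of −1.09 ± 0.08, and Nfkbiz, an atypical IκB protein, one of −1.02 ± 0.08. Cd40lg, the ligand of CD40, stood at 99.1, 111 and 103 CPM against 41, 42 and 39.7 (1.35 ± 0.09 (adjusted p = 1.81e-15)), and CD25+ progenitors held as much as conventional cells, 105 ± 7.58 CPM.

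Regulators of cell death also divided, and on each side there were members that promote and members that oppose it. The BCL-2 family sets whether a cell survives: BH3-only proteins such as BIM and BMF promote death, and BCL-2, BCL-xL and MCL1 oppose it. Of 27 genes tested, of 33 listed, 11 were higher in CD25+ and 6 in FOXP3lo progenitors. Their summed level was nonetheless lower in CD25+ libraries (1840 to 1867 CPM) than in FOXP3lo libraries (2096 to 2163 CPM). Bcl2l11, which encodes BIM, the mediator of negative selection (ENSMUSG00000027381, chromosome 2, 128126038 to 128162547), stood at 227, 292 and 273 CPM in CD25+ and 96.2, 128 and 109.9 CPM in FOXP3lo libraries. Every CD25+ library exceeded every FOXP3lo library, and the log2 fold change was 1.24 ± 0.10 (adjusted p = 1.60e-11). Conventional cells averaged 91.4 ± 7.8 CPM and mature Tregs 54 ± 7.2, so CD25+ progenitors had the highest mean of the 4 gates. Bmf stood at 20.9, 24.4 and 22.7 CPM against 4.92, 2.19 and 2.86 (2.77 ± 0.36 (adjusted p = 3.57e-07)), and Bid, Bax and Bak1 had log2 fold changes of 1.49, 0.67 and 0.56.

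The survival genes were not all on one side. Bcl2l1, which encodes BCL-xL (ENSMUSG00000007659, chromosome 2, 152780668 to 152831728), stood at 133, 139 and 145 CPM in CD25+ and 39.8, 33 and 34.1 CPM in FOXP3lo libraries, a log2 fold change of 1.96 ± 0.09 (adjusted p = 1.41e-20). Bcl2 itself went the other way, at 179.6, 162 and 152 CPM against 263, 256 and 255 (−0.65 ± 0.07 (adjusted p = 2.17e-10)), and so did Mcl1, at 429.6, 396 and 402 against 664, 651 and 657 (−0.69 ± 0.06 (adjusted p = 1.78e-12)). Both of these were highest in mature Tregs, at 394 ± 11.6 and 806 ± 33.2 CPM. Casp8, the initiator caspase of death receptors, and Cflar, which encodes its inhibitor FLIP, were both higher in FOXP3lo progenitors (−0.96 ± 0.07 and −0.76 ± 0.07). Pmaip1 and Bbc3, p53 targets that encode NOXA and PUMA, were not called, with log2 fold changes of 0.12 and −0.55.

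IL-2 family cytokines act on these progenitors through receptors that share the common gamma chain, the kinases JAK1 and JAK3, and STAT5. Of 20 genes tested, of 22 listed, 4 were higher in CD25+ and 10 in FOXP3lo progenitors, with a median of −0.28. The receptor chains that IL-2 shares with other cytokines were not called. Il2rb, the IL-2 receptor beta chain, stood at 161, 160.1 and 182 CPM in CD25+ and 199, 165 and 186 CPM in FOXP3lo libraries (−0.13 ± 0.11 (adjusted p = 0.371)), against 24.2 ± 5.93 in conventional cells and 657 ± 28.2 in mature Tregs. Il2rg, the gamma chain itself, stood at 161, 184 and 175 against 167, 172 and 167 (0.04 ± 0.07 (adjusted p = 0.708)). The kinases were higher in FOXP3lo progenitors, with Jak1 (ENSMUSG00000028530, chromosome 4, 101152367 to 101265282) at 604, 607 and 589 CPM against 1224, 1223 and 1179 (−1.01 ± 0.06 (adjusted p = 9.93e-18)) and Jak3 at 78.9, 87.7 and 94.7 against 169, 154 and 169.8 (−0.91 ± 0.08 (adjusted p = 2.20e-12)). Il4ra, the IL-4 receptor alpha chain, was higher in FOXP3lo progenitors as well (−0.84 ± 0.07).

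STAT5 genes and targets were split. Stat5a was slightly higher in CD25+ progenitors (0.26 ± 0.07) and Stat5b in FOXP3lo progenitors (−0.26 ± 0.06). Cish, a feedback inhibitor that STAT5 induces (ENSMUSG00000032578, chromosome 9, 107296026 to 107302784), stood at 78, 72.5 and 82.2 CPM against 51.8, 54.4 and 55.1 (0.53 ± 0.08 (adjusted p = 1.94e-06)). Mature Tregs held more, at 204 ± 10.9 CPM, and conventional cells less, at 15.7 ± 0.408. Socs2, another STAT5 target, was under 1 CPM in all 6 progenitor libraries, at 0, 0.76 and 0.692 against 0.636, 0.449 and 0.22, and averaged 19 ± 3.59 in mature Tregs. Socs3, Pim1 and Pim2 were higher in FOXP3lo progenitors (−1.2, −0.46 and −0.73). Il2 itself had 81 counts over the CD25+ libraries and 0 over the FOXP3lo libraries, at least 26.3-fold higher when 3 counts are taken as the floor of the gate, and 0 in conventional cells and mature Tregs. Its level in CD25+ progenitors was low, at 1.36, 1.37 and 1.7 CPM, and even in the 3 libraries.

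Treg signature genes divided too. Of 30 genes tested, of 34 listed, 9 were higher in CD25+ and 10 in FOXP3lo progenitors, with a median of 0.14. Those higher in FOXP3lo progenitors included Ctla4 and several surface markers. Ctla4, an inhibitory receptor that removes costimulatory ligands (ENSMUSG00000026011, chromosome 1, 60887000 to 60915832), stood at 33.3, 21.2 and 29.2 CPM in CD25+ and 90.2, 84.9 and 96.4 CPM in FOXP3lo libraries (−1.7 ± 0.11 (adjusted p = 7.17e-16)). Mature Tregs averaged 201 ± 19 CPM, so both gates were below them. Gpr83, Izumo1r (folate receptor 4) and Nrp1 (neuropilin 1), surface proteins of thymic Tregs, had log2 fold changes of −1.69 ± 0.11, −1.4 ± 0.10 and −1.38 ± 0.14, with mature Tregs above both gates at 201 ± 11.2, 158 ± 13.2 and 117 ± 5.19 CPM. CD25+ progenitors held less of Gpr83 and Izumo1r than conventional cells on average, at 12.8 ± 1.92 and 26.6 ± 1.62 against 29.2 ± 1.35 and 54.9 ± 8.22 CPM. Ikzf4, which encodes Eos, and Itgb8, an integrin that activates TGF-β, had log2 fold changes of −0.99 ± 0.09 and −0.87 ± 0.23. Flicr, a long non-coding RNA that overlaps the first part of Foxp3 on the same strand, so that reads may be assigned uncertainly between them, stood at 0.186, 0.913 and 0.106 CPM against 10.1, 12 and 10.3 (−4.67 ± 0.38 (adjusted p = 2.55e-13)). Without CD25+ replicate 42 the log2 fold change of Flicr was −6.16.

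Higher in CD25+ progenitors, beside Ikzf2, Tnfrsf4 and Tnfrsf9, were Lrrc32 and Rgs16. Lrrc32, which encodes GARP, the carrier of latent TGF-β (ENSMUSG00000090958, chromosome 7, 98489283 to 98502181), stood at 51.2, 45.4 and 57.4 CPM against 23.6, 23.7 and 31.1 (0.97 ± 0.10 (adjusted p = 1.11e-10)). The difference between the gates was small beside the 288 ± 7.31 CPM of mature Tregs. Rgs16, a regulator of G protein signalling, stood at 75.7, 92.5 and 95.4 CPM against 25.8, 27.7 and 25.3 (1.74 ± 0.13 (adjusted p = 6.87e-15)), and there CD25+ progenitors exceeded mature Tregs, 44.2 ± 5.2 CPM. Of 5 tested markers of Tregs that have returned from the periphery, of 13 listed, 2 were higher in CD25+ (Ccr6 and Cd44) and 1 in FOXP3lo progenitors (Ly6c1), with a median of −0.14. Their summed level was 177 to 187 CPM in CD25+ and 66.1 to 81.3 CPM in FOXP3lo libraries, the opposite direction to the median, and most of it was Cd44, an adhesion receptor of activated T cells, at 167 against 56 CPM on average.

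The largest block on the CD25+ side was growth and division. Of 32 DNA replication genes, 28 were higher in CD25+ progenitors and 0 higher in FOXP3lo progenitors, with a median of 1.41. Mcm5, a subunit of the helicase that opens DNA for replication (ENSMUSG00000005410, chromosome 8, 75109569 to 75128439), stood at 96.7, 95 and 88.2 CPM in CD25+ and 26.6, 32.1 and 27.3 CPM in FOXP3lo libraries (1.7 ± 0.10 (adjusted p = 2.51e-17)). Mcm2 and Mcm6 showed similar differences (1.54 ± 0.08 and 1.55 ± 0.09). Uhrf1, which carries DNA methylation through replication (ENSMUSG00000001228, chromosome 17, 56303321 to 56323486), stood at 87.4, 68.7 and 76 CPM against 8.91, 7.69 and 10.2, the largest difference of the list (3.11 ± 0.15 (adjusted p = 6.16e-20)). CD25+ progenitors held more of these than conventional cells, which averaged 57.8 ± 2.36 CPM of Mcm5 and 38.3 ± 9.36 CPM of Uhrf1.

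Of 29 mitosis genes tested, 23 were higher in CD25+ progenitors and 1 in FOXP3lo progenitors, with a median of 1.35. Top2a, the topoisomerase of dividing cells (ENSMUSG00000020914, chromosome 11, 98992943 to 99024189), stood at 182, 152 and 136 CPM against 55, 48.5 and 47.9 (1.63 ± 0.10 (adjusted p = 2.30e-16)). Mki67, which encodes the division marker Ki-67, stood at 236, 168 and 159.9 CPM against 64.3, 64.1 and 60.0 (1.58 ± 0.19 (adjusted p = 8.65e-05)). For both, CD25+ replicate 40 was the highest of its gate, and the 3 FOXP3lo libraries were close together. Here conventional cells were near the CD25+ progenitors, at 183 ± 13.2 and 201 ± 18.3 CPM, and mature Tregs were near the FOXP3lo progenitors, at 48.2 ± 7.64 and 68.2 ± 17. The exception was Ndc80, a kinetochore protein, at 19.7, 14 and 17.7 CPM against 24.6, 23.8 and 24.8 (−0.51 ± 0.17 (adjusted p = 0.0137), not called without CD25+ replicate 42).

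Of 34 ribosome biogenesis and MYC genes, 30 were higher in CD25+ and 3 in FOXP3lo progenitors, with a median of 1.22. Their summed level was 6579 to 6661 CPM in CD25+ and 3128 to 3248 CPM in FOXP3lo libraries. Ncl, which encodes nucleolin (ENSMUSG00000026234, chromosome 1, 86344719 to 86359400), stood at 2169.9, 2127 and 2098 CPM against 948, 874 and 879 (1.24 ± 0.06 (adjusted p = 1.12e-19)). Utp20, part of the complex that processes small subunit ribosomal RNA (ENSMUSG00000004356, chromosome 10, 88746607 to 88826804), stood at 178, 183 and 193 CPM against 48, 52.8 and 44.8 (1.93 ± 0.09 (adjusted p = 3.46e-21)). Myc itself differed less, at 82.4, 79.4 and 91.9 CPM against 56.8, 54.6 and 53.5 (0.62 ± 0.10 (adjusted p = 1.50e-06)), and was higher in mature Tregs than in either gate on average (108 ± 14.4). The 3 members higher in FOXP3lo progenitors, Mnt, Mxi1 and Mxd4, encode proteins that compete with MYC for its partner MAX (−0.57 ± 0.11, −0.55 ± 0.14 and −0.29 ± 0.07).

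Metabolic genes followed. Of 22 glycolysis and glucose uptake genes, 15 were higher in CD25+ and 3 in FOXP3lo progenitors, with a median of 0.76. Hk2, the inducible hexokinase that starts glycolysis (ENSMUSG00000000628, chromosome 6, 82725025 to 82774454), stood at 14.2, 16.7 and 21.6 CPM against 2.37, 2.41 and 3.19 (2.72 ± 0.27 (adjusted p = 3.35e-11)). Pgk1, a later enzyme of the pathway, stood at 98.2, 105 and 118 CPM against 39.5, 33.7 and 32 (1.61 ± 0.10 (adjusted p = 1.05e-16)), and Tpi1, Pfkfb3 and the lactate exporter Slc16a3 had log2 fold changes of 2.12, 1.43 and 1.49. The 3 genes on the FOXP3lo side were Pdk1, which holds pyruvate back from the mitochondria (−1.37 ± 0.08 (adjusted p = 1.39e-17)), and the glucose transporters Slc2a3 (−1.3 ± 0.11 (adjusted p = 1.73e-13)) and Slc2a1. Slc2a1 overlapped between the gates, at 14.6, 15.8 and 19 CPM against 18.6, 23.2 and 24.7 (−0.43 ± 0.16 (adjusted p = 0.0326)), and its call was lost without CD25+ replicate 40 or 42 and without FOXP3lo replicate 42 or 43.

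Of 25 cholesterol synthesis and uptake genes tested, of 26 listed, 13 were higher in CD25+ and 2 in FOXP3lo progenitors, with a median of 0.64. Their summed level overlapped between the gates, at 972 to 1079 CPM in CD25+ and 1042 to 1097 CPM in FOXP3lo libraries. Cyp51, an enzyme of the middle of the pathway, stood at 28.7, 29.5 and 22.3 CPM against 8.74, 9.54 and 9.52 (1.53 ± 0.21 (adjusted p = 1.07e-07)). Every CD25+ library was above every FOXP3lo library. Both members higher in FOXP3lo progenitors, Abca1 and Abcg1, export cholesterol from the cell (−0.89 ± 0.10 and −0.77 ± 0.07).

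Chemokine receptors and integrins had members called on both sides. Of 9 chemokine receptor genes tested, of 15 listed, 3 were higher in CD25+ and 4 in FOXP3lo progenitors. Ccr4, a receptor that guides thymocytes to the medulla (ENSMUSG00000047898, chromosome 9, 114490316 to 114504916), stood at 36.5, 29.1 and 38.2 CPM in CD25+ and 4.92, 2.81 and 4.62 CPM in FOXP3lo libraries (3.07 ± 0.21 (adjusted p = 1.83e-15)). Conventional cells averaged 53.9 ± 11.3 CPM and mature Tregs 4.76 ± 1.49, so FOXP3lo progenitors were at the level of mature Tregs. Ccr8 stood at 42.4, 45.7 and 43.9 CPM against 10.2, 9.04 and 12.2 (2.07 ± 0.16 (adjusted p = 3.62e-14)). Ccr7, which also guides thymocytes to the medulla, was higher in FOXP3lo progenitors by a small amount, at 192, 173 and 215 CPM against 273, 231 and 277 (−0.43 ± 0.08 (adjusted p = 1.36e-05)). Ccr6 was called higher in CD25+ progenitors with overlapping libraries, at 9.66, 6.08 and 12.9 CPM against 4.4, 4.55 and 8.31 (0.73 ± 0.25 (adjusted p = 0.0187)), a call lost without CD25+ replicate 43 and without FOXP3lo replicate 40 or 42.

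Of 24 adhesion and actin genes tested, of 27 listed, 6 were higher in CD25+ and 9 in FOXP3lo progenitors, with a median of −0.05. Cd44, the hyaluronan receptor of activated T cells (ENSMUSG00000005087, chromosome 2, 102811141 to 102901665), stood at 160.3, 175 and 166 CPM against 57, 53.9 and 57 (1.58 ± 0.08 (adjusted p = 3.11e-19)). Itga4 and Itgb7, which form the gut-homing integrin α4β7, were higher in FOXP3lo progenitors, with Itga4 (ENSMUSG00000027009, chromosome 2, 79255426 to 79333123) at 220.3, 241 and 205 CPM against 638, 671 and 647 (−1.55 ± 0.07 (adjusted p = 1.41e-20)) and Itgb7 at 124, 120.2 and 124 against 277, 262 and 289.8 (−1.17 ± 0.07 (adjusted p = 2.17e-17)). Itgb1, a partner of α4 in another integrin, was higher in CD25+ progenitors (0.84 ± 0.08). Rgs1, which dampens chemokine receptor signals, stood at 8.73, 7.76 and 10.6 CPM against 38, 33.8 and 42.3 (−2.07 ± 0.12 (adjusted p = 2.55e-17)), far below mature Tregs at 181 ± 4.64.

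Genes of TGF-β and of cyclic AMP leaned to FOXP3lo progenitors. TGF-β signals through paired receptors and SMAD proteins and favours Foxp3 expression. Of 19 TGF-β pathway genes tested, of 21 listed, 10 were higher in FOXP3lo and 3 in CD25+ progenitors. Tgfbr2, the ligand-binding receptor (ENSMUSG00000032440, chromosome 9, 116084293 to 116175360), stood at 239, 235 and 235 CPM against 403, 392 and 401 (−0.75 ± 0.07 (adjusted p = 1.06e-12)), and Tgfbr1 was not called (0.12 ± 0.07). Smad7, the inhibitory SMAD that the pathway itself induces (ENSMUSG00000025880, chromosome 18, 75367529 to 75395935), stood at 77, 62.1 and 81.4 CPM against 240.2, 222 and 232 (−1.66 ± 0.08 (adjusted p = 1.72e-19)), and Smad4 and the repressor Ski had log2 fold changes of −0.74 ± 0.08 and −0.75 ± 0.07. The 3 on the CD25+ side were Lrrc32 and the co-receptors Tgfbr3 (0.32 ± 0.08) and Eng (1.34 ± 0.33).

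Of 17 adenosine and cyclic AMP genes tested, of 19 listed, 8 were higher in FOXP3lo and 5 in CD25+ progenitors. The phosphodiesterases, which degrade cyclic AMP, were divided by isoform. Pde4a stood at 27.6, 34.6 and 37.8 CPM in CD25+ and 4.8, 7.3 and 5.39 CPM in FOXP3lo libraries (2.51 ± 0.23 (adjusted p = 3.65e-12)). Pde4b stood at 36.7, 32.8 and 30.4 CPM against 111, 94.1 and 109 (−1.65 ± 0.10 (adjusted p = 2.55e-17)), and Pde3b, which FOXP3 is known to repress, at 131, 111 and 114 against 332, 289 and 288 (−1.36 ± 0.13 (adjusted p = 5.04e-07)). Pde3b averaged 37.7 ± 8.98 CPM in mature Tregs, below both gates. The adenosine receptor Adora2a and the transporter Slc29a1 were higher in CD25+ progenitors (1.17 ± 0.25 and 1.47 ± 0.20).

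Effector helper T cell genes were mostly on the CD25+ side. Of 19 genes tested, of 28 listed, 12 were higher in CD25+ and 1 in FOXP3lo progenitors, with a median of 0.92. The cytokine genes Il4, Il13, Il17a, Il17f, Il22 and Ifng are among the 9 listed that were not tested. Rora, an orphan nuclear receptor of innate-like and helper T cells (ENSMUSG00000032238, chromosome 9, 68653786 to 69388246), stood at 122, 132 and 117 CPM against 25.3, 35.1 and 35 (1.96 ± 0.12 (adjusted p = 2.86e-16)). Tbx21, which encodes T-bet, had a log2 fold change of 4.16 ± 0.85 at a low level (3.45 ± 0.719 against 0.185 ± 0.193 CPM). Il21 had 87 counts over the CD25+ libraries against 0, at least 28.3-fold higher. Bcl6, the factor of follicular helper cells, was not called, at 73.1, 89.5 and 90.8 CPM against 83.7, 99.7 and 86.5 (−0.09 ± 0.11 (adjusted p = 0.573)). Il18r1, the IL-18 receptor, was the exception, at 5.82, 5.07 and 4.9 CPM against 23.9, 24.4 and 27.7 (−2.27 ± 0.22 (adjusted p = 1.47e-11)). Markers of NKT and innate-like cells moved in part with this list. Of 9 tested, of 15 listed, 5 were higher in CD25+ and 2 in FOXP3lo progenitors, and their summed level was lower in CD25+ libraries (303 to 319 CPM) than in FOXP3lo libraries (379.9 to 397 CPM). Zbtb16, the defining factor of NKT cells, was among the 6 matched markers below the filter, and the part of such cells was not tested.

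The genes with the largest fold changes on the CD25+ side were largely genes with little expression in FOXP3lo progenitors, and most were in none of the lists. The imprinted non-coding RNA H19 had 632 counts over the CD25+ libraries (15.4, 9.94 and 9.95 CPM) and 0 over the FOXP3lo libraries, at least 205-fold higher. Xcl1, a member of the effector helper list and the chemokine that attracts cross-presenting dendritic cells in the medulla (ENSMUSG00000026573, chromosome 1, 164931644 to 164935527), stood at 20.2, 21 and 24.4 CPM against 0.116, 1.07 and 1.16 (4.79 ± 0.45 (adjusted p = 1.31e-10)). Nrgn, a calmodulin-binding protein, stood at 44.5, 53 and 44.6 CPM against 0.579, 2.41 and 1.65 (4.92 ± 0.30 (adjusted p = 3.43e-15)). Notch3, a NOTCH receptor, stood at 31.1, 23.2 and 21.7 CPM against 0.752, 1.46 and 1.1 (4.51 ± 0.30 (adjusted p = 6.85e-16)). The NOTCH target Hes1, picked after its values were seen, had 266 counts against 0, at least 86.4-fold higher. Of 11 NOTCH pathway genes tested, a family picked by symbol after results were seen, 4 were higher in CD25+ and 4 in FOXP3lo progenitors, with a median of −0.05. Those on the FOXP3lo side were Notch1 (−0.41), the ligand Jag2 (−1.18) and the Deltex genes Dtx1 (−0.73) and Dtx4 (−1.16). The remaining genes that the naming rule gave on the CD25+ side were Kif26b, Epb41l4b, Tmem132a, Gna14, Car8, Pdzk1ip1, Cbfa2t3, Zeb2, Maoa and Myl10, with log2 fold changes from 4.33 to 6.6 and mean levels in CD25+ progenitors from 6.13 to 12.1 CPM. Of these, 6 had between 5 and 21 counts over the FOXP3lo libraries and a fold change that moved by over 1.5 times when 1 such library was left out. Without FOXP3lo replicate 43 the log2 fold changes of Cbfa2t3, Epb41l4b and Pdzk1ip1 were 7.42, 6.9 and 5.76 (4.85, 5.7 and 4.97 with all libraries). Without replicate 42 those of Kif26b and Car8 were 7.26 and 5.73 (6.6 and 4.98), and without replicate 40 that of Myl10 was 5.56 (4.33).

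On the FOXP3lo side the genes with the largest fold changes included more abundant ones. Neurl3, a ubiquitin ligase (ENSMUSG00000047180, chromosome 1, 36264597 to 36274679), stood at 4.95, 6.34 and 7.02 CPM against 102, 91.1 and 102 (−4.0 ± 0.14 (adjusted p = 1.65e-24)), and FOXP3lo progenitors exceeded both conventional cells, 11.2 ± 1.48 CPM, and mature Tregs, 41.4 ± 2.0. Sntb1, a syntrophin of the membrane skeleton, stood at 5.14, 2.94 and 2.5 CPM against 61.3, 55.5 and 58.9 (−4.07 ± 0.19 (adjusted p = 1.21e-20)), again the highest of the 4 gates on average. Art2b, an ADP-ribosyltransferase on the T cell surface with a close copy, stood at 5.14, 3.14 and 2.34 CPM against 42.6, 53.3 and 43.1 (−3.72 ± 0.24 (adjusted p = 9.56e-16)). Tent5c, a poly(A) polymerase, stood at 9.78, 7.6 and 10.6 CPM against 74.3, 63.7 and 69.2 (−2.89 ± 0.14 (adjusted p = 3.75e-20)). Ntn4, a netrin, stood at 0.31, 0.203 and 0.0532 CPM against 5.38, 5.16 and 5.56 and averaged 20.2 ± 7.04 CPM in mature Tregs. Rflnb was higher in FOXP3lo progenitors (−2.98 ± 0.48 (adjusted p = 6.91e-04)) and low in mature Tregs, at 36.6 ± 3.8 against 1.98 ± 1.78 CPM. Slc28a2b, Calhm6, Cd55, Tbc1d30 and Tent5a had log2 fold changes of −4.28, −3.58, −3.45, −3.25 and −3.23. That of Cd55 was −5.75 without CD25+ replicate 42.

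Levels in the other gates were set beside these differences as a description, without a test. On the scale of log2(mean CPM + 0.5), mature Tregs were nearer to FOXP3lo than to CD25+ progenitors for 59.5% of all genes tested. This held for 2102 of the 3110 genes higher in CD25+ progenitors (67.6%) and 2099 of the 3077 higher in FOXP3lo progenitors (68.2%). Conventional cells were nearer to FOXP3lo progenitors for 53.5% of all genes, 55.1% of those higher in CD25+ and 57.6% of those higher in FOXP3lo progenitors. The lists differed in this. Mature Tregs were nearer to FOXP3lo progenitors for 59 of 63 called interferon-stimulated genes, 27 of 29 called maturation genes and all 24 called mitosis genes. They were nearer to CD25+ progenitors for 18 of 25 called TCR response genes and 11 of 15 called cholesterol genes. Conventional cells were nearer to CD25+ progenitors for 23 of 24 called mitosis genes and 22 of 28 called DNA replication genes. The heat map of list medians gives these levels by library. The median of the chemokine receptor list changed sign between replicates of a gate, at 0.20, −0.44 and 0.35 in FOXP3lo libraries.

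**Figure D5:**
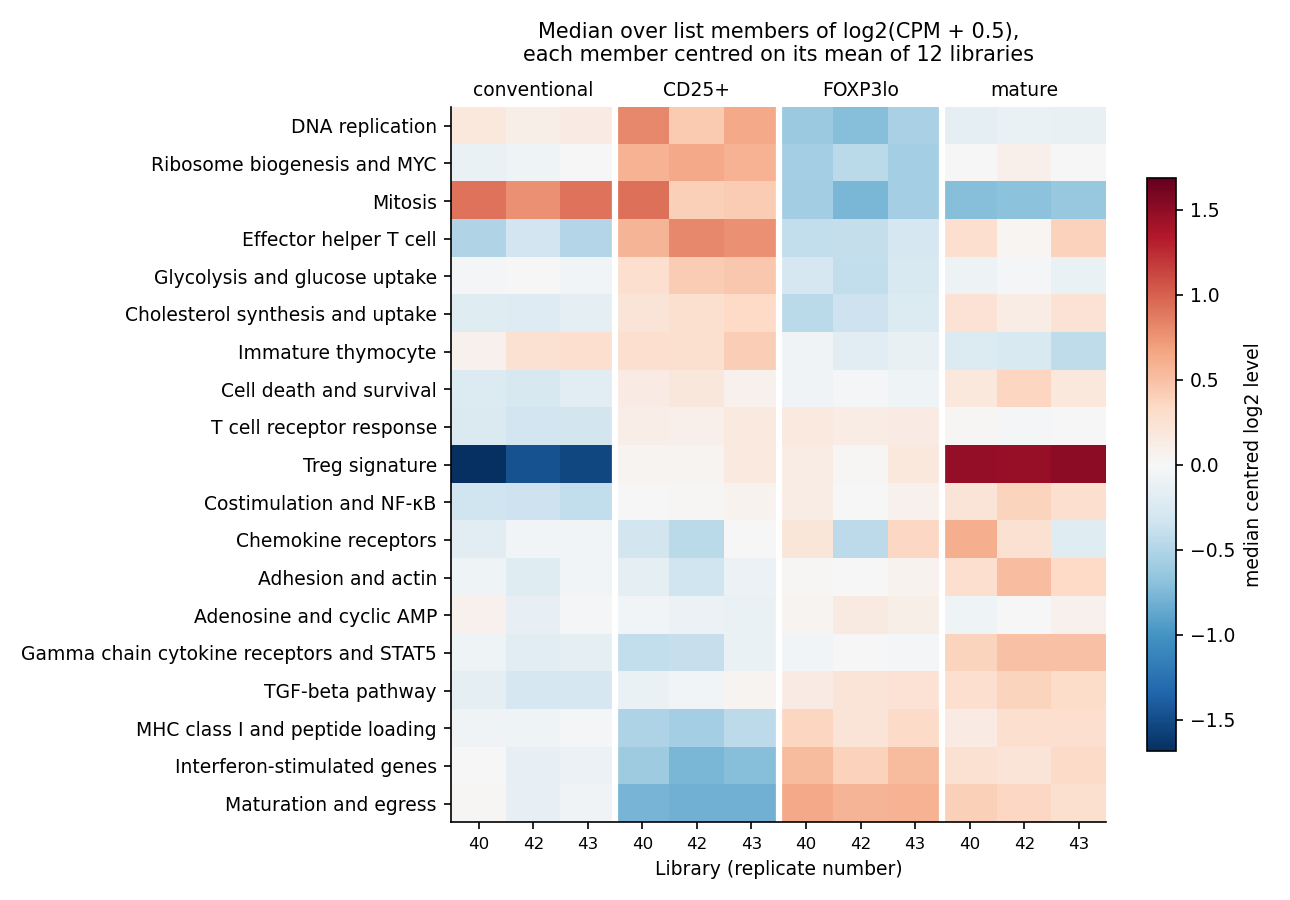
Median over the tested members of each list (rows) of log2(CPM + 0.5), centred for each gene on its mean of 12 libraries, in each library (columns, 3 replicates a gate), with red above and blue below that mean. The maturation list runs from −0.81 to −0.78 in CD25+ and from 0.57 to 0.64 in FOXP3lo libraries, and the mitosis list is high in conventional and CD25+ libraries and low in FOXP3lo and mature Treg libraries.

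Most listed markers of dendritic cells and macrophages, B cells, stroma and erythroid cells did not pass the filter on low counts. The few that did are too few to set their calls apart from the background. Over all genes tested, 19.9% were called higher in CD25+ and 19.7% higher in FOXP3lo progenitors. Of 22 dendritic cell and macrophage markers, 15 did not pass the filter, among them Itgax, Lyz2 and C1qa, and the 7 tested had 1 higher in CD25+ (Cd74) and 2 higher in FOXP3lo progenitors (Ctss and Apoe). Their summed level was 137 to 155 CPM in CD25+ and 302 to 326 CPM in FOXP3lo libraries. Their median log2 fold change was 0.88 (0.087 to 1.11 over the alternative fits), the opposite direction to the sum. Of 15 B cell markers, 10 did not pass the filter, Ms4a1 among them, and of the 5 tested, Ighm was higher in FOXP3lo progenitors (−1.19), with a summed level of 19.1 to 25.3 CPM against 40.4 to 54.5. Of 20 epithelial and stromal markers, 13 did not pass, and of the 7 tested, 1 was higher in CD25+ and 3 in FOXP3lo progenitors, at 202 to 231 CPM in sum against 393 to 422. Of 12 plasmacytoid dendritic cell markers, 8 were tested, with 4 higher in CD25+ and 1 in FOXP3lo progenitors and a sum of 243 to 264 CPM against 209 to 227, while Siglech was below the filter. The part of such cells in the differences between the gates was not tested. Of 12 erythroid markers, 1 was tested and was not called. Of 15 mitochondrially encoded genes, 5 were higher in CD25+ and 1 in FOXP3lo progenitors, and mitochondrial transcripts took 10.4% to 10.9% of counts in CD25+ and 10.6% to 10.97% in FOXP3lo libraries.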

How the data were processed

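Bulk RNA was measured in sorted thymocytes with a stranded total RNA kit for small inputs (SMARTer Pico v2), from thymi dissociated mechanically, depleted of CD8-positive cells on magnets and sorted, per the labels' protocols. The authors deposited raw counts for 55573 genes of Ensembl release 97 (GRCm38). FeatureCounts 1.6.2 counted read pairs whose ends were both mapped at a quality of 10 or more, with strand setting 2, per the file headers. Per the submitters' processing notes, Trimmomatic 0.33, HISAT2 2.1.0 and an older featureCounts, 1.4.6, were used. All 15 count columns were mapped to a library, and 0 rows named no gene. Counts do not separate molecules from amplified copies, so bounds and intervals cover counting error only.

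Symbols came from matching gene positions to RefSeq on GRCm38.p6 (Jaccard overlap of at least 0.5 with a margin of 0.2, or a shared end or sole partner at a lower overlap), which named 36826 genes. Of 734 list entries, 717 were matched and 613 tested. The test was edgeR 4.0.16 (R 4.3.3, quasi-likelihood, robust) on counts of 12 libraries with 4 gate means, after filterByExpr and TMM normalization, at an adjusted p under 0.05. It was also run on simulated counts in which far fewer genes changed than were called here. That run therefore cannot show how the normalization or the calls behave under changes this broad. CPM used the TMM-scaled library sizes. Named genes are, per direction, the 15 largest folds among called genes with non-overlapping libraries and at least 5 CPM in the higher gate, leaving out gate genes, receptor segments, pseudogenes and clone names. To these were added the 4 called members per list and direction with the smallest adjusted p, minority members of lists and a set of genes of interest. Other list members are examples chosen after their values were seen. The members and lists were chosen with earlier results of these data known. The series' design names 3 biological replicates, and libraries with the same number were taken to share one, which the labels do not state. Across genes, which are not independent replicates, deviations from gate means correlated by −0.00252 to 0.0363 between progenitor libraries of the same number (3 pairs) and by −0.0353 to 0.0331 between those of different numbers (6 pairs). Promoter motifs were not analysed here, and some genes that entered the fit and the list counts are not reported here. The Bst2+ libraries entered an alternative fit only.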

Additional observations from a re-analysis of the deposited data

How the results depend on the processing

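Across 17 alternatives, the numbers of genes called higher in CD25+ and in FOXP3lo progenitors stayed within 1.5 times 3110 and 3077 except in 2. A fit of all 15 libraries called 1595 and 1474, and a test against a fold of 1.5 called 1196 and 862 (58.1% of the calls on the CD25+ side, against 50.3%). RLE and upper quartile factors gave 3195 and 2973, and 3010 and 3196, no filter 2859 and 2842, DESeq2 1.42.0 3298 and 3076, and limma-voom (limma 3.58.1) 3244 and 3217. Leaving out each progenitor library in turn gave 2727 to 2891 and 2639 to 2870. A replicate block, which uses the pairing by number, called 3117 and 3110, and 1 named gene lost its call. No gene was called in the opposite direction in any of the 17. Of 186 named genes, 134 kept their call or lack of it in every alternative, while 52 changed in at least 1, most in the test against a fold of 1.5. With all 15 libraries, the calls of Tcf7, Satb1, Stat5a, Cish, Itgb8, Adora2a, Ccr9, Id3, Eng, Tgfbr3, Cd8b1 and Calhm6 were among those lost. Genes that changed sign were not called: Cd4 (−0.003381 with upper quartile factors, −0.0325 to 0.0634 without single libraries), Socs2 (−0.583 with limma-voom, −0.245 to 0.736 without single libraries), Bcl6 (−0.144 to 0.00217), Il2rg (−0.00249 to 0.091) and Rel (−0.0781 to 0.00335) without single libraries. The list medians of chemokine receptors (−0.51 to 0.35 over the alternatives), recirculating Treg markers (−0.41 to 0.31), adhesion and actin (−0.096 to 0.007) and TCR response genes (−0.0059 to 0.053) crossed 0, in each case also without FOXP3lo replicate 43 (0.16, 0.30, 0.007 and −0.0059). The causes were not tested. Depth limits genes under about 1 CPM, such as Socs2, and the 3 libraries a gate limit small differences.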

Other observations

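Gene families that the lists do not cover, picked by symbol after results were seen and so given as counts with no test, are described here. Of 18 cytosolic aminoacyl-tRNA synthetases, which load amino acids onto transfer RNA, 17 were called higher in CD25+ progenitors and 0 in FOXP3lo progenitors, with a median log2 fold change of 0.85. All 8 subunits of the CCT chaperonin, which folds actin and tubulin, were higher in CD25+ progenitors (median 0.94), as were 28 of 34 proteasome subunits (median 0.63, 2 higher in FOXP3lo), 49 of 73 mitochondrial ribosomal proteins (median 0.56, 1 higher in FOXP3lo), 24 of 38 subunits of respiratory complex I and 14 of 17 of the ATP synthase (0 higher in FOXP3lo in both). Cytosolic ribosomal proteins had a median of 0.02, with 22 of 82 higher in CD25+ and 10 in FOXP3lo progenitors, while ribosome biogenesis genes had one of 1.22. Of 315 tested genes named Zfp, which encode zinc finger proteins, 26 (8.25%) were higher in CD25+ progenitors, against 19.9% of all genes, and 63 (20%) in FOXP3lo progenitors, near the 19.7% of all genes.

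Antigen receptor segments were counted apart from the named genes, and many are close copies whose reads are uncertain. Of 61 TCR alpha V segments tested, 0 were called in either direction by edgeR. Higher in FOXP3lo progenitors were 15 of 56 alpha J and 14 of 22 beta V segments, and 0 were higher in CD25+ progenitors. Over all genes tested, 19.7% were higher in FOXP3lo and 19.9% in CD25+ progenitors. The alpha J share was nearer to that background than the beta V share. Beta V segments summed to 190.6 to 232 CPM in CD25+ and 303 to 339 CPM in FOXP3lo libraries. All 5 TCR gamma segments tested, of 15 in the table, were higher in CD25+ progenitors, at 31.9 to 43.0 CPM in sum against 0.347 to 0.561, and 0 of 5 TCR delta segments were called.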
